A study of Mus musculus with 10 samples.

Results

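The IgD compartment was taken as every productive heavy-chain sequence whose constant gene was called IGHD, in bulk B cell receptor libraries from the deep cervical lymph nodes of 10 wild-type C57BL/6 mice. Sequences of a mouse that shared V gene, J gene and junction were counted as 1 clonotype. This gave 72544 sequences and 70146 IgD clonotypes, of 282104 heavy-chain clonotypes with an assigned class. All mice had received GL261 cells, a mouse glioma line, by injection into the brain, and nodes were collected from them on day 20. Isotype control IgG had been given to 5 mice, and an antibody against CTLA-4, an inhibitory receptor of T cells, to the other 5. RNA came from whole dissociated nodes without sorting of B cells, and 1 library was made per mouse. The labels give no age, sex or antibody dose, and mice without glioma were not analysed here. The libraries held 33568 to 63017 sequences with a total deposited count of 382184 to 790139, and IgD took 5428 to 17033 of those counts. The labels do not say if such a count is a read or a molecule, so intervals and limits given here cover counting error alone.

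IgD and IgM are made in the same B cell from 1 rearranged V region. A long primary transcript runs through the mu and the neighbouring delta constant exons and is spliced to either. Mature naive follicular B cells carry both on the surface, whereas activated, switched and antibody-secreting cells lose IgD, and B-1 cells carry little of it. The libraries hold receptor sequences alone, so the gene call IGHD is the only marker of these cells that was measured.

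The junctions of the clonotypes on which the results turn are given first. A junction runs from the codon of the conserved cysteine at the end of V to the conserved tryptophan of J and spells the CDR3 between them. Letters are in lower case, 5′ to 3′, and capitals mark bases that are masked as N in the deposited germline alignment. The mask does not follow the deposited lengths between the gene segments, which can be longer, as in MRYSNYWYFDV, where no base is masked. The first is the most counted IgD clonotype of all, from isotype replicate 5, the second the most counted outside that mouse, from anti-CTLA-4 replicate 1, and the third the most counted of isotype replicate 2. The fourth has the highest count among mutated IgD clonotypes without a recurrent mismatch pattern, and the last pair were found in IgD of the most mice.
IGHV3-6 IGHJ4 AKYGYFYAMDY: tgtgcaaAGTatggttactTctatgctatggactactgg
IGHV1-50 IGHJ2 ARMGRAFDY: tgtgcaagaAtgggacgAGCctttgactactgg
IGHV1-55 IGHJ2 ARSKLTGPYFDY: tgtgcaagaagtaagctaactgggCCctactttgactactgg
IGHV1-78 IGHJ1 ARCSSYWYFDV: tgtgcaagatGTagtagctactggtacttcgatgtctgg
IGHV11-2 IGHJ1 MRYSNYWYFDV: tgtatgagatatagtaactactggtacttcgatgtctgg
IGHV11-2 IGHJ1 MRYGSSYWYFDV: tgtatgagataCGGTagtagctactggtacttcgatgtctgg

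IgD was a large class by clonotypes and a small one by counts. It held 23.6%, 25.1%, 24.5%, 24.5% and 25.2% of classed clonotypes in isotype replicates 1 to 5, and 23.1%, 21.0%, 24.1%, 29.6% and 24.4% in anti-CTLA-4 replicates 1 to 5. The group means were 24.6% ± 0.643 and 24.4% ± 3.18 (SD, n = 5 each). Anti-CTLA-4 mice held both the lowest and the highest share. By deposited counts the share was 4.72% ± 1.93 in isotype mice and 3.68% ± 2.83 in anti-CTLA-4 mice (SD, n = 5 each). Anti-CTLA-4 replicates 1, 2 and 3 were lowest at 1.56%, 2.18% and 1.89%, and replicate 4 was highest at 8.31%. Neither difference passed the threshold by a two-sided exact permutation test (p = 0.913 and 0.524, adjusted p = 0.974 and 0.931 over 16 IgD measures). In such bulk libraries fewer IgD-bearing cells and less IgD transcript per cell cannot be told apart.

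IgD clonotypes had nearly flat counts. Of the 70146, 50222 had a count of 1, 15024 a count of 2, 4650 a count of 3 or 4, 249 a count of 5 to 9 and 1 a higher count. The median was 1 in every mouse. The most counted IgD clonotype reached 6, 8, 6 and 8 in isotype replicates 1 to 4 and 9, 5, 4, 7 and 6 in anti-CTLA-4 replicates 1 to 5. In isotype replicate 5 it reached 240. With expansion set at a count of at least 50, that clonotype was the single expanded one, a share of 0.00143% of IgD clonotypes (exact Clopper-Pearson 95% interval 3.61e-05 to 0.00794). In IgM of the same mice, 387 of 205910 clonotypes passed the same count (0.188%, interval 0.170 to 0.208), with highest counts of 317 to 9259. Single mice held 17 to 81 such IgM clonotypes. IgM held 471217 counts in all and IgD 96629, so the same count is a larger share of IgD counts. The part of depth in this contrast was not tested. Both intervals pool the clonotypes of 10 mice as if independent, so they do not measure the spread between mice.

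**Figure D1:**
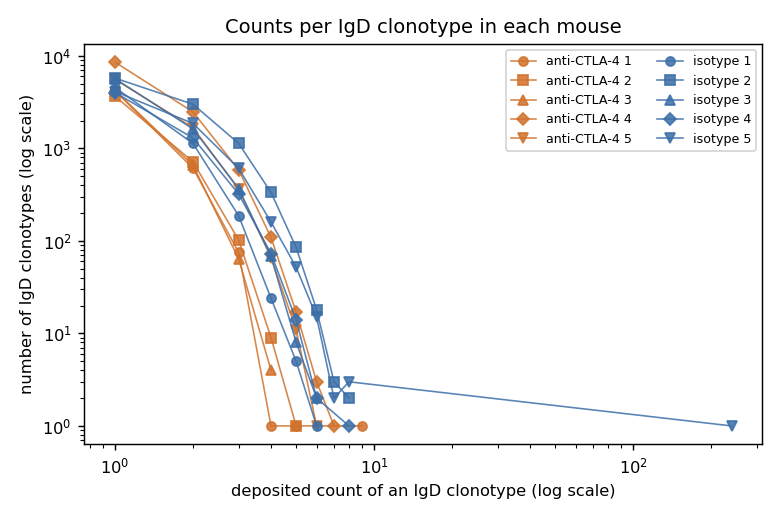
Number of IgD clonotypes (vertical axis, log scale) at each deposited count (horizontal axis, log scale), 1 line per mouse, isotype in blue and anti-CTLA-4 in orange. All lines fall steeply and end at a count of 4 to 9, except isotype replicate 5, which has 1 clonotype at 240.

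The expanded IgD clonotype used IGHV3-6, an IGHV3 gene that was among the most used in IgD, with IGHJ4. Its junction, the first of those printed above, has 39 nucleotides and spells an 11-residue CDR3. It comprised 5 sequences with counts of 227, 7, 4, 1 and 1, and the most counted matched the germline V gene at all 292 aligned nucleotides. Its 240 counts were 30 times the next IgD clonotype of the mouse and made up 2.20% of the mouse's IgD counts. It ranked 34 among all heavy-chain clonotypes of that mouse, and its count would have ranked 2 among the IgM clonotypes. The rearrangement was listed at 0 in IgM, IgG, IgA and IgE of this mouse and in every class of the other 9 mice. For IgM, 0 of 39864 counts allows up to 0.00753%. The closest junctions of like V gene, J gene and length in that mouse, AKNGYTYAMDY and ARDGNFYAMDY, differed at 4 nucleotides and were IgD clonotypes with a count of 1. Whether the count reflects many cells or much transcript in few cells cannot be told apart.

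In 7 of the remaining 9 mice the leading clonotype, or the 1 taken where several tied, had no count in IgM or a switched class. The exceptions were the ARMGRAFDY and ARSKLTGPYFDY rearrangements. Isotype replicate 3 had 2 clonotypes tied at 6 counts. In anti-CTLA-4 replicate 3, 4 clonotypes tied at 4 counts. Among them ARIHYGSYYAMDY, not the 1 taken, had 497 counts in IgM and 37444 in IgG. In anti-CTLA-4 replicate 1 the ARMGRAFDY rearrangement had 9 counts in IgD, 353 in IgM, 104092 in IgG and 1 in IgE. The same junction appeared in 4 other mice with up to 3184 counts, fewer than in this mouse. Its most counted IgD sequence had 0 mismatches over 294 V nucleotides. In isotype replicate 2 the ARSKLTGPYFDY rearrangement had 8 counts in IgD, 73 in IgM and 20 in IgG, and 1 mismatch in 294 V nucleotides. Another clonotype of that mouse also had 8 IgD counts.

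Compared with IgM of the same mice, IgD had lower counts and fewer V mismatches. The mean count per IgD clonotype was 1.35 ± 0.168 against 2.35 ± 0.704 for IgM (SD, n = 10), and it was lower in 10 of 10 mice. The 10 most counted clonotypes held 0.786% ± 0.708 of IgD counts and 19.5% ± 16.2 of IgM counts. Clonotypes with a count of 1 made up 73.5% ± 9.85 of IgD and 63.1% ± 11.1 of IgM, and were more frequent in IgD in 10 of 10 mice. Each of these differences had p = 0.00195 by a two-sided exact permutation test that swapped the classes within mice, the smallest that 10 mice allow, and an adjusted p of 0.00231 over 13 measures. IgM also had more counts than IgD in every mouse, and the part of depth in these differences was not tested.

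V mismatches were counted between each clonotype's most counted sequence and germline. IgD averaged 0.111 to 0.135 mismatches per 100 V nucleotides in the 10 mice, and IgM 0.119 to 0.174. The means were 0.120 ± 0.00895 and 0.135 ± 0.0151 (SD, n = 10), with IgD lower in 10 of 10 mice (exact p = 0.00195, adjusted p = 0.00231). IgG, at 0.717 ± 0.208, and IgA, at 0.836 ± 0.229, lay far above both. Clonotypes with at least 1 mismatch per 100 nucleotides, called mutated here whatever the source of the mismatches, made up 1.24% ± 0.212 of IgD and 2.02% ± 0.633 of IgM (lower in IgD in 10 of 10 mice, the same exact p). Clonotypes with no mismatch made up 82.6% ± 0.623 of IgD and 82.1% ± 1.33 of IgM (higher in IgD in 8 of 10 mice, exact p = 0.0801, adjusted p = 0.0801). That difference passed the threshold among clonotypes with a count of at least 2, where it was 1.98 percentage points (exact adjusted p = 0.00564).

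Most mutated IgD clonotypes carried mismatches that recur in unrelated rearrangements. Of 832 mutated IgD clonotypes, out of 70133 with at least 200 aligned V nucleotides, 676 shared at least 3 of the same mismatches with 2 or more IgM clonotypes of another junction length. Among them were all 452 IgD clonotypes listed as IGHV14-1,IGHV14-2 in that order, with a median of 8 mismatches, and all 42 listed as IGHV8-12,IGHV8-5, with a median of 40. A further 60 were called IGHV1-19 and had a median of 39 mismatches. For these clonotypes, mutated means only distant from the reference V sequence of the deposited alignment. Whether the mice's own germline differs from that reference was not tested. The ARELDWYFDV clonotype of isotype replicate 2, the most counted mutated IgD clonotype at 6 counts, is one of these: its 7 mismatches to IGHV14-1,IGHV14-2 all lie at positions where over 50% of IgM clonotypes of that call also differ. With such fixed positions left out, 0.421% ± 0.0960 of IgD clonotypes and 0.993% ± 0.590 of IgM clonotypes were mutated (SD, n = 10). Mean mismatches per 100 V nucleotides were then 0.0773 ± 0.00669 in IgD and 0.0866 ± 0.0120 in IgM, closer together than with all positions.

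The remaining 156 mutated IgD clonotypes were nearly all rare. They made up 0.235% ± 0.0657 of IgD clonotypes, between 0.175% and 0.402% in single mice, against 0.755% ± 0.510 of IgM, 24.9% ± 10.8 of IgG and 33.6% ± 10.6 of IgA (SD, n = 10). A count of 1 was found for 133 of them, and the highest count was 5. The same rearrangement was found in IgM for 13 and in a switched class for 6. In 21 of the 156 the aligned V segment ran over 8 nucleotides longer than usual for its V gene, into the junction, and those mismatches lie partly outside the V gene. None of these 21 had an IgM partner. Of the 156, 12 had over 9 mismatches, with at most 53, against a median of 3. Positions where over 50% of IgM clonotypes of a call also differ were not taken out of the 156. IGHV1-69, with 1 such position, held 32 of the 832 mutated IgD clonotypes, and 1 of the 32 had a recurrent pattern.

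Of the 4 mutated IgD clonotypes without a recurrent pattern and with a count of 3 or more, 3 had partners in IgM. In isotype replicate 5 the ARCSSYWYFDV clonotype had 6 mismatches in 295 V nucleotides, 5 counts in 3 IgD sequences, 11 counts in IgM and 12 in IgG. In the same mouse the IGHV4-1 clonotype AIGSYYFDY had 3 mismatches in 292 nucleotides, with 4 counts in IgD, 25 in IgM and 1 in IgG. The IGHV1-75 clonotype ARSREWSHFDY of isotype replicate 2 had 7 mismatches in 296 nucleotides, 4 counts in IgD and 29 in IgM. The fourth, the IGHV1-69 clonotype ATGDSKAMDY of isotype replicate 3, had 3 mismatches in 292 nucleotides and 3 counts, all in IgD. Only 2 of its mismatches lie outside the fixed positions, so with those left out it is not mutated at the cutoff used here.

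J gene use differed between IgD and IgM in every mouse. IGHJ1 to IGHJ4 are the J segments of the mouse heavy chain, with IGHJ1 nearest to the D genes. IGHJ1 joined 17.0% to 18.8% of IgD clonotypes and 15.2% to 16.2% of IgM clonotypes, and the classes did not overlap. IGHJ2 joined 34.6% to 36.7% of IgD and 31.4% to 32.6% of IgM, IGHJ3 20.3% to 21.5% of IgD and 24.1% to 25.3% of IgM, and IGHJ4 24.1% to 26.2% of IgD and 27.1% to 28.2% of IgM. IgD was thus higher by 2.40 ± 0.533 percentage points for IGHJ1 and by 3.79 ± 0.612 for IGHJ2 (SD, n = 10). The differences were -3.59 ± 0.456 percentage points for IGHJ3 and -2.61 ± 0.637 for IGHJ4. All 4 differences went the same way in 10 of 10 mice (exact p = 0.00195, adjusted p = 0.00231). They were as large when IgD and IgM were compared within V genes, at 2.50, 3.58, -3.54 and -2.55 percentage points.

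Non-productive rearrangements, which encode no receptor, gave J gene differences of other sizes. IgD held 226 to 743 such clonotypes per mouse. IGHJ2 was higher in their IgD than in their IgM, at 43.2% ± 2.29 against 35.5% ± 1.62, and IGHJ4 lower, at 18.4% ± 1.91 against 24.9% ± 1.19 (SD, n = 10), each in 10 of 10 mice (exact p = 0.00195, adjusted p = 0.00282 with these in place of the productive J shares). The IGHJ1 difference was 0.426 ± 2.29 percentage points and the IGHJ3 difference -1.67 ± 3.07, and neither passed the threshold (exact p = 0.580 and 0.119). The IGHJ2 and IGHJ4 differences, at 7.68 ± 2.90 and -6.44 ± 2.44 points, stood beside 3.79 and -2.61 points in productive clonotypes. Whether productive and non-productive clonotypes differ in this was not tested.

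**Figure D2:**
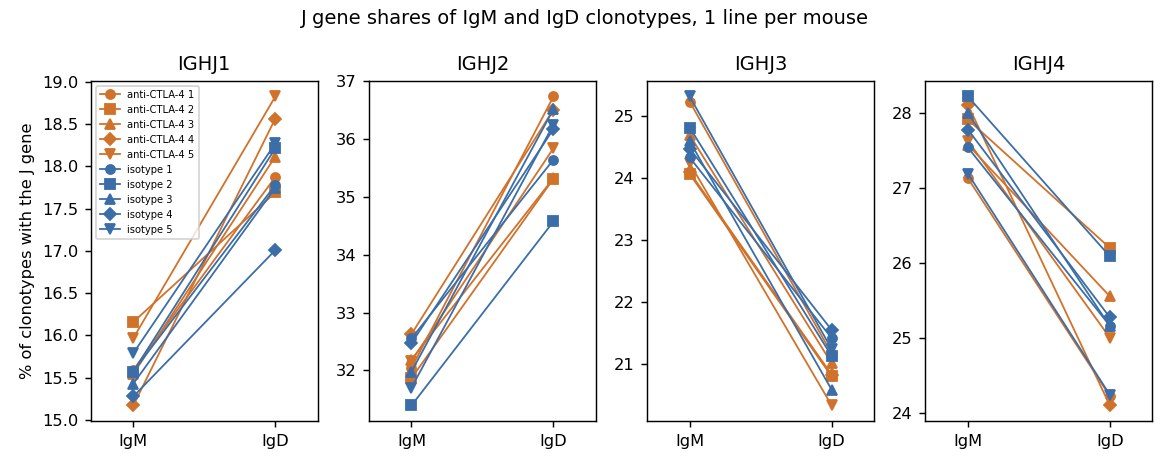
Share of clonotypes with each J gene (percent, vertical axes that do not start at 0) in IgM and IgD, 1 line per mouse, isotype in blue and anti-CTLA-4 in orange. Lines rise from IgM to IgD for IGHJ1 and IGHJ2 and fall for IGHJ3 and IGHJ4 in all 10 mice.

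The CDR3 loops of IgD were nearly as long as those of IgM. The mean length was 11.73 ± 0.0421 residues in IgD and 11.78 ± 0.0392 in IgM (SD, n = 10). The difference of -0.0490 residues had the same sign in 8 of 10 mice (exact p = 0.0137, adjusted p = 0.0148), and its adjusted p was 0.0529 among clonotypes with a count of at least 2. The median was 12 residues in each mouse for both classes. A length of 16 residues or more was found for 7.13% ± 0.263 of IgD and 7.40% ± 0.243 of IgM clonotypes. The deposited length between V and D averaged 4.22 ± 0.0466 nucleotides in IgD and 4.20 ± 0.0265 in IgM, and between D and J 3.09 ± 0.0309 and 3.11 ± 0.0164 (SD, n = 10), for clonotypes with a D call.

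IGHV1, the largest mouse family, supplied 67.9% ± 0.853 of IgD clonotypes and 64.0% ± 0.645 of IgM clonotypes, higher in IgD in 10 of 10 mice. The V calls most used by IgD were IGHV1-64 at 4.63% ± 0.190, IGHV3-6 at 4.39% ± 0.389, IGHV1-26 at 4.35% ± 0.264, the joint call of the near-identical IGHV1-62-3 and IGHV1-72 at 4.04% ± 0.247, and IGHV9-3 at 3.69% ± 0.274 (SD, n = 10). Across V calls, shares in IgD and IgM of a mouse correlated at r = 0.980 to 0.991 over 149 calls, which come from 1 library, are not independent and span a wide range of shares.

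Of 84 V calls tested, edgeR's quasi-likelihood test on clonotype numbers with the mouse as a block placed 20 (23.8%) higher and 19 (22.6%) lower in IgD than in IgM at an adjusted p under 0.05. Of the 20 higher calls, 18 belong to IGHV1, of which 44 calls were tested and 4 were lower. The median log2 fold change was 0.11 for IGHV1 and -0.16 for the 40 calls of other families, of which 2 were higher and 15 lower. That grouping by family was made after these values were seen. DESeq2 called 14 higher and 13 lower. With deposited counts in place of clonotype numbers, which weigh IgM by its expanded clonotypes, 3 were higher and 13 lower. With a count of at least 2, 7 were higher and 10 lower of 62.

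Of the 19 genes lower in IgD, 4 each belong to IGHV1 and IGHV5, 2 each to IGHV6, IGHV10 and IGHV14, and 1 each to IGHV2, IGHV7, IGHV9, IGHV11 and IGHV13. IGHV6-3 took 0.854% to 1.36% of IgD and 1.55% to 1.91% of IgM clonotypes, without overlap, a log2 fold change of -0.54 ± 0.06 (SE, edgeR adjusted p = 1.39e-16). IGHV10-1 took 0.329% to 0.639% of IgD and 0.659% to 1.07% of IgM, also without overlap, a log2 fold change of -0.74 ± 0.08 (edgeR adjusted p = 1.39e-16). IGHV13-2, the single tested member of its family, averaged 0.155% ± 0.0399 in IgD and 0.302% ± 0.0390 in IgM, a log2 fold change of -0.93 ± 0.14. IGHV6-6 fell by 0.61 ± 0.09 and IGHV10-3 by 0.47 ± 0.08 on the log2 scale, so both tested members of IGHV6 and of IGHV10 were lower. The joint call IGHV14-1,IGHV14-2 was lower at -0.34 ± 0.05, and IGHV14-4 at -0.17 ± 0.05, of 5 IGHV14 calls. IGHV14-4 did not pass in DESeq2 (adjusted p = 0.0933) or in edgeR with deposited counts (adjusted p = 0.312). With deposited counts, IGHV14-1,IGHV14-2, IGHV10-3 and IGHV5-17 did not pass either (edgeR adjusted p = 0.0567, 0.117 and 0.190). IGHV7-3 (-0.63), IGHV5-17 (-0.39), IGHV5-9-1 (-0.60), IGHV1-47 (-0.64) and IGHV1-72 called alone (-0.93) complete the 12 with the smallest p. IGHV1-72 called alone rests on 43 IgD clonotypes and cannot be cleanly parted from the joint call with IGHV1-62-3, which did not pass the test.

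The named genes higher in IgD had log2 fold changes of 0.16 to 0.34. IGHV1-64 took 4.41% to 5.08% of IgD clonotypes and averaged 4.03% ± 0.133 of IgM, a log2 fold change of 0.23 ± 0.03 that was positive in 10 of 10 mice (edgeR adjusted p = 1.03e-10). IGHV1-15 averaged 3.33% ± 0.313 against 2.82% ± 0.148 (log2 fold change 0.27 ± 0.04), IGHV1-69 3.21% ± 0.232 against 2.77% ± 0.163 (0.26 ± 0.04) and IGHV1-52 2.27% ± 0.107 against 1.95% ± 0.102 (0.26 ± 0.05), each higher in IgD in 10 of 10 mice. IGHV1-19 (0.26) and IGHV1-81 (0.19) were also higher in 10 of 10 mice. IGHV1-50 (0.21), IGHV1-59 (0.22), IGHV1-9 (0.16) and IGHV1-12 (0.26) were higher in 9 and IGHV1-63 (0.34) in 7. IGHV5-16 (0.30, higher in 9 of 10 mice) was outside IGHV1. With deposited counts, IGHV1-50, IGHV1-59, IGHV1-9 and IGHV1-12 turned to small negative values. IGHV1-64, IGHV1-15, IGHV1-69, IGHV1-52 and IGHV1-81 kept their sign there and did not pass (edgeR adjusted p of 0.0825 to 0.673).

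**Figure D3:**
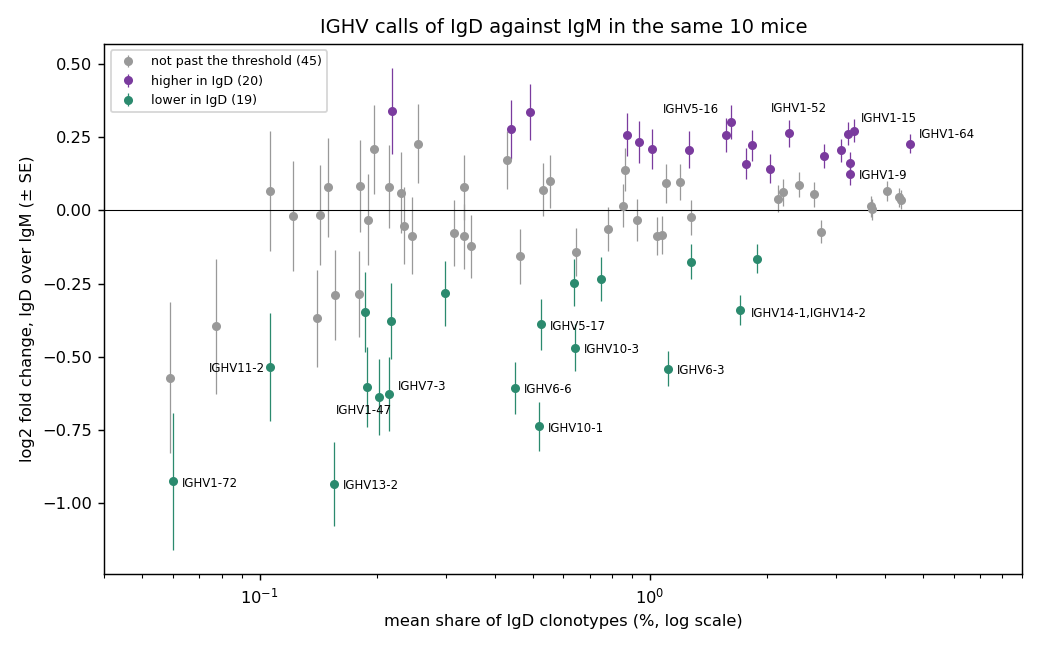
Log2 fold change of IgD over IgM for 84 IGHV calls (vertical axis, points with SE) against their mean share of IgD clonotypes (percent, log scale), 10 mice with the mouse as a block. The 20 calls higher in IgD (purple) have values up to 0.34, and the 19 lower calls (green) values down to -0.93.

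B-1 cells, a self-renewing population rich in antibodies against phosphatidylcholine and phosphorylcholine, are known for a few V genes, and IGHV11-1, IGHV11-2, IGHV12-3 and IGHV7-1 were taken as their list. Together they made up 0.140% to 0.382% of IgD clonotypes and 0.362% to 0.513% of IgM clonotypes in single mice. The means were 0.281% ± 0.0660 and 0.449% ± 0.0549 (SD, n = 10), lower in IgD in 10 of 10 mice (exact p = 0.00195, adjusted p = 0.00231). IGHV11-2, a gene of phosphatidylcholine binders, was at 0.107% ± 0.0218 in IgD and 0.162% ± 0.0286 in IgM, a log2 fold change of -0.53 ± 0.18 (edgeR adjusted p = 0.00906). IGHV7-1, the gene of phosphorylcholine binders, was at 0.140% ± 0.0524 and 0.187% ± 0.0301, and did not pass (edgeR adjusted p = 0.0535). Its side of the threshold was not firm, since it passed without TMM (edgeR adjusted p = 0.0319) and without each of 3 mice. IGHV12-3, with 20 IgD clonotypes, and IGHV11-1, with 4, were too rare to be tested singly. IGHV12-3 was lower in IgD than in IgM in 9 of 10 mice, and IGHV11-1 in 5 of 10, with a higher mean in IgD (0.00631% against 0.00430%).

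At this depth, with 50222 of 70146 IgD clonotypes at a count of 1, almost all were seen in a single mouse. The like share of IgM is not given here, so this is not shown to be particular to IgD. Of the IgD rearrangements defined by V gene, J gene and CDR3 residues, 69466 (99.6%) were found in 1 mouse, 267 in 2, 16 in 3, 4 in 4 and 1 in 5. The most widespread was MRYSNYWYFDV on IGHV11-2 and IGHJ1, the CDR3 long known from B-1 cells that bind phosphatidylcholine. It was found in IgD of 3 isotype and 2 anti-CTLA-4 mice with 17 counts in all, always with the junction printed above, and in IgM of all 10 mice. MRYGSSYWYFDV, on the same V and J genes, was found in IgD of 4 mice with 15 counts and 1 junction, and also in IgM of all 10. AREAY on IGHV1-50, ARGAY on IGHV1-53 and VRRDFDY on IGHV10-1, with CDR3s of 5 or 7 residues, were each found in 4 mice and each came from 2 or 3 different junctions. By nucleotide junction, pairs of mice shared 0 to 10 IgD clonotypes, with a median of 2 over 45 pairs. Between 0.145% and 0.473% of a mouse's IgD clonotypes had more counts in another mouse.

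Few IgD clonotypes were also seen in IgM. A rearrangement with identical V gene, J gene and junction was present in IgM of the same mouse for 2770 of 70146 IgD clonotypes, although IgM held 205910 clonotypes. In isotype replicates 1 to 5 the share was 3.58%, 5.87%, 2.63%, 6.08% and 5.97%, and in anti-CTLA-4 replicates 1 to 5 it was 3.13%, 3.55%, 2.47%, 2.89% and 2.93%. Isotype replicates 2, 4 and 5 lay above all other mice, replicate 1 just above the highest anti-CTLA-4 mouse, and replicate 3 among the anti-CTLA-4 mice. By IgD count, the mean share over mice was 3.79% ± 1.33 at a count of 1, 4.05% ± 1.82 at 2 and 4.83% ± 2.35 at 3 or 4 (SD, n = 10). Of 250 clonotypes with 5 or more counts, 25 had a partner, but isotype replicates 2 and 5 held 108 and 73 of the 250. Whether the share differs with IgD count was not tested.

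Seen from IgM, IgD counts were fewest, relative to IgM, on the most counted rearrangements. IgD was found for 1.23% ± 0.531 of rearrangements with an IgM count of 1, 1.34% ± 0.468 at 2 to 4, 2.86% ± 1.00 at 5 to 9, 4.44% ± 1.84 at 10 to 49 and 7.48% ± 6.36 at 50 to below 500 (SD, n = 10). Per 100 IgM counts, IgD held 1.72 ± 0.936, 0.809 ± 0.341, 0.682 ± 0.289, 0.445 ± 0.402 and 0.157 ± 0.122 counts in these classes. Among the 40 rearrangements with an IgM count of 500 or more, 1 had IgD, with a single count. In all, 24 of the 387 IgM clonotypes with a count of at least 50 had IgD, with at most 9 counts. The share with a switched relative was higher along the same classes, from 0.107% ± 0.106 at an IgM count of 1 to 38.0% ± 15.0 at 50 to below 500. The highest value at 50 to below 500, 23.5% in isotype replicate 5, rests on 17 rearrangements. The IgM count both sorts the rearrangements and divides the ratio, so this order is a description and carries no test.

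**Figure D4:**
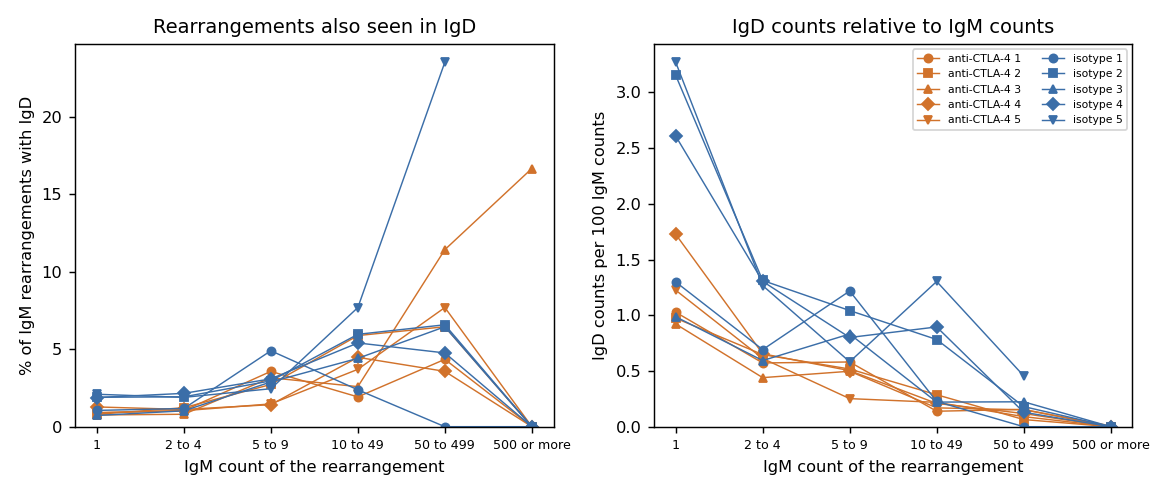
Left, percent of IgM rearrangements also found in IgD, and right, IgD counts per 100 IgM counts, by the IgM count of the rearrangement (horizontal axis, 6 classes), 1 line per mouse, isotype in blue and anti-CTLA-4 in orange. The left values rise to 7.48% on average at counts of 50 to below 500, while the right values fall from 1.72 on average to 0.157.

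IgD clonotypes without an IgM partner had slightly longer CDR3s. They averaged 11.74 ± 0.0404 residues, against 11.36 ± 0.164 for IgD clonotypes with a partner (SD, n = 10), longer in 10 of 10 mice (exact p = 0.00195, adjusted p = 0.00781 over 4 measures). Among clonotypes with a count of at least 2 the difference was 0.230 residues and did not pass the threshold (exact adjusted p = 0.596). V mismatches were 0.119 ± 0.00850 per 100 nucleotides without and 0.125 ± 0.0543 with a partner, and the mutated share 1.22% ± 0.198 and 1.70% ± 1.28 (exact adjusted p = 0.727 and 0.354). With a count of at least 2 the order of mismatches turned, to 0.0545 per 100 nucleotides more without a partner (exact adjusted p = 0.0234). With fixed positions also left out that difference was 0.0212 and did not pass (exact adjusted p = 0.195). IGHJ1 was at 18.1% ± 0.534 without and 16.4% ± 2.60 with a partner (exact adjusted p = 0.168).

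Relatives in IgG, IgA or IgE were rarer still. They were found for 51 IgD clonotypes, 0.0884% ± 0.0872 of IgD against 0.496% ± 0.429 of IgM clonotypes (SD, n = 10), lower in IgD in 10 of 10 mice (exact p = 0.00195, adjusted p = 0.00231). Of the 51, 46 were also present in IgM. Of 273 switched rearrangements with at least 1000 switched counts, 12 had IgD and 103 had IgM. IgM held 471217 counts in all and IgD 96629, and neither this contrast nor the next is scaled to those totals. On these large switched rearrangements IgD held 1.28 ± 1.43 counts per 100000 switched counts, and IgM 3170 ± 3405 (SD, n = 10). The largest IgD counts there were the 9 of ARMGRAFDY and, in anti-CTLA-4 replicate 3, 4 counts on IGHV14-2,IGHV14-1 with the CDR3 ARIHYGSYYAMDY, beside 497 in IgM and 37444 in IgG. The IGHV1-49 rearrangement AREYFDV of the same mouse had 2 counts in IgD, 36 in IgM and 47047 in IgG. In 2 mice, isotype replicate 1 and anti-CTLA-4 replicate 4, the number of IgD clonotypes with a switched relative was 1 and 0.

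Between treatments, none of 16 IgD measures passed the threshold. The smallest p belonged to the counts per clonotype. The mean count of an IgD clonotype was 1.27, 1.65, 1.34, 1.39 and 1.60 in isotype replicates 1 to 5 and 1.16, 1.21, 1.16, 1.35 and 1.34 in anti-CTLA-4 replicates 1 to 5. The groups overlapped, with anti-CTLA-4 replicates 1, 2 and 3 below every isotype mouse. The means were 1.45 ± 0.168 and 1.24 ± 0.0943 (SD, n = 5 each; two-sided exact permutation p = 0.0556, adjusted p = 0.317). The share with a count of 1 was 67.3% ± 8.99 in isotype and 79.6% ± 6.57 in anti-CTLA-4 mice (exact p = 0.0556, adjusted p = 0.317). The same 3 anti-CTLA-4 mice had the fewest IgD counts, 5428 to 5741 against 7489 to 17033 in the others, and the part of depth in these differences was not tested. With 5 mice per group the test could reach a p of 0.00794.

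The share of IgD clonotypes with an IgM partner averaged 4.83% ± 1.61 in isotype and 2.99% ± 0.394 in anti-CTLA-4 mice (exact p = 0.0635, adjusted p = 0.317). Brought to equal depth, 5428 IgD counts and 32788 IgM counts per mouse, it was 4.13% ± 1.64 and 2.43% ± 0.615, the same p. V mismatches were 0.116 ± 0.00451 and 0.124 ± 0.0109 per 100 nucleotides, with anti-CTLA-4 replicates 1, 2 and 3 above and replicates 4 and 5 within the isotype range (exact p = 0.159, adjusted p = 0.423). The mutated share was 1.23% ± 0.140 and 1.25% ± 0.284 (adjusted p = 0.961 by the exact test). Clonotypes with a switched relative made up 0.0482% ± 0.0249 and 0.129% ± 0.112 of IgD (exact p = 0.206, adjusted p = 0.472). CDR3 length was 11.73 ± 0.0563 and 11.73 ± 0.0284 residues, and the 4 J genes differed by at most 0.411 percentage points, with adjusted exact p-values of 0.423 to 0.961. For none of the 13 differences between IgD and IgM did the test of a difference by treatment pass (smallest exact p = 0.0635, adjusted p = 0.671, for the share with a switched relative).

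**Figure D5:**
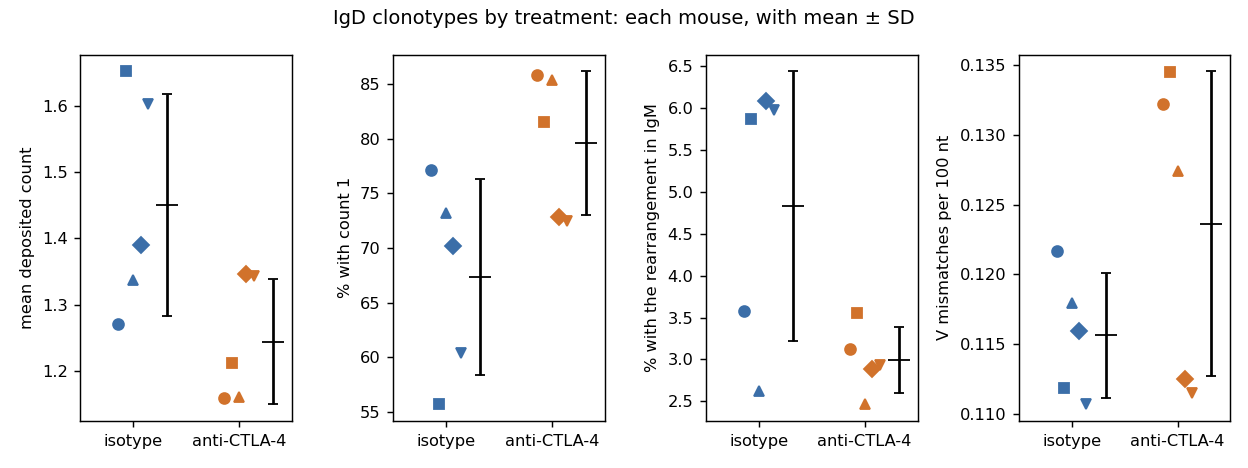
Measures of IgD clonotypes in each mouse, with group mean and SD in black, isotype in blue and anti-CTLA-4 in orange, on axes that do not start at 0. The groups overlap in all 4 panels, and isotype replicates 2, 4 and 5 stand above the other mice in the share with the rearrangement in IgM.

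No V call of IgD passed the test between treatments. Of 76 calls tested by edgeR's quasi-likelihood test, 0 (0%) passed an adjusted p of 0.05, and 3 had an unadjusted p under 0.05. DESeq2 also called 0, with 0 at an unadjusted p under 0.05. IGHV1-55 averaged 2.45% ± 0.242 in isotype and 2.80% ± 0.168 in anti-CTLA-4 mice, a log2 fold change of 0.19 ± 0.08 (SE). The joint call IGHV14-1,IGHV14-2 was at 1.81% ± 0.146 and 1.58% ± 0.295 (-0.24 ± 0.11), and IGHV5-6 at 0.263% ± 0.0930 and 0.170% ± 0.0522 (-0.55 ± 0.26). The adjusted p in edgeR was 0.801 for all 3. IGHV1-62-2,IGHV1-71, IGHV1-31, IGHV6-3 and IGHV5-16 had the next smallest p among calls with a higher mean after anti-CTLA-4, and IGHV14-1, IGHV8-5 and IGHV7-1 among those with a lower one, all with log2 fold changes between -0.53 and 0.52. The genes most used by IgD moved by at most 0.10, the value of IGHV3-6.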

How the data were processed

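The authors deposited 1 table per mouse with a row per assembled receptor sequence, its gene calls, germline alignment and a whole-number count, per the file headers. The kit used unique molecular identifiers per the labels' protocols. The aligner, germline set and meaning of the count are not stated there. The nucleotide lengths between V, D and J (in the tables' other columns) were used as deposited.

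Productive IGHV rows of 1 class were kept, with joint calls of IgG genes alone taken as IgG, and 0.178% without a constant gene left out. All 111 gene names of IgD matched the GRCm38.p6 table, and 6.63% of IgD clonotypes had a joint V call. Mismatches were counted over at least 200 aligned V nucleotides. One value per mouse was compared by exact permutation tests with Benjamini-Hochberg adjustment (Python 3.11.15, scipy 1.17.1). V calls were tested with edgeR 4.0.16 (TMM, filterByExpr) and, as an alternative, DESeq2 1.42.0, in R 4.3.3, checked on simulated counts. Genes were named by rule: up to 12 past the threshold in each direction, else the 5 with the smallest p, the 5 most used by IgD, and the B-1 list. Clonotypes named are the most counted per mouse, the most counted mutated ones and the most widespread. The members, lists and rules were chosen with earlier results of these data known. Alternatives were other tools, no TMM, no filter, deposited counts, a count of at least 2, amino acid clonotypes, fixed mismatch positions left out, other mutation measures, equal depth, mismatches at an equal V gene mix, leaving out each mouse, and a replicate block. Added after seeing the data were the J shares at an equal V gene mix and in non-productive rearrangements, the removal of the expanded clonotype, and a count of at least 2 joined with the removal of fixed positions.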

Additional observations from a re-analysis of the deposited data

Results flagged for a closer look

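Among 108 sets of 5 IgD values looked at, 4 held a mouse set apart from the other 4 of its group, where chance alone gives about 1 in 20. In isotype replicate 5 the 10 most counted IgD clonotypes held 2.76% of IgD counts, against 0.393% to 0.693% in the other isotype mice, and the expanded IGHV3-6 clonotype alone held 2.20%. In the same mouse IGHV9-3 took 4.17% of IgD clonotypes, against 3.57% to 3.74%, and IGHV11-1 took 0.0147%, a single clonotype, against 0 in the other isotype mice. In isotype replicate 4 IGHV7-1 took 0.0525% of IgD clonotypes, against 0.165% to 0.207%. The causes were not tested.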

How the results depend on the processing

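The IgD results are limited by depth: 50222 of 70146 IgD clonotypes rest on a count of 1, so an IgM partner can be missed, and single mismatches in such sequences cannot be checked against a second one. Shares of 67 V calls did not pair the mice by replicate number (correlations of same-numbered mice -0.088 to 0.281, 1 of 5 matched best by its own number). Whether same-numbered mice shared handling or a batch was not tested. With the replicate block no IgD measure between groups could pass, whatever its values, since the smallest possible exact p is 0.0625. The mean count difference of -0.206 had that exact p. With the same block edgeR again called 0 V genes.

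With a count of at least 2, differences between groups (anti-CTLA-4 minus isotype) reversed for CDR3 length (-0.0326 residues), IGHJ1 (-1.37 percentage points), IGHJ3 (0.312) and IGHJ4 (0.928). Without the expanded clonotype that for the 10 most counted clonotypes was 0.00573 points. None of these passed a test. For IgD minus IgM, the share with no mismatch came to pass at 1.98 points with a count of at least 2, 0.740 with fixed positions left out, 1.81 by the mean over sequences and 1.89 with fixed positions left out and a count of at least 2, and the CDR3 difference ceased to pass at -0.0459 residues with a count of at least 2. Non-productive rearrangements gave 0.426 points for IGHJ1 and -1.67 for IGHJ3, no longer past the threshold. For IgD without minus with an IgM partner, mismatches reversed to 0.0545, 0.00341 and 0.0212 per 100 nucleotides with a count of at least 2, with fixed positions left out, and with both. The mutated share reversed to 0.626 and 0.0627 points, and IGHJ1 to -2.60, and the CDR3 difference of 0.230 residues no longer passed. Genes higher in IgD than IgM numbered 3 with deposited counts and 7 with a count of at least 2, and genes lower 10 with the latter. The causes were not tested, and fewer clonotypes remained with a count of at least 2.

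Single genes reversed as follows (log2). With deposited counts, IgD over IgM was -0.091 for IGHV1-50, -0.0051 for IGHV1-59, -0.0092 for IGHV1-9, -0.031 for IGHV1-12, -0.38 for IGHV3-6, -0.096 for IGHV1-26 and -0.45 for IGHV9-3, and between groups IGHV3-6 was -0.081. IGHV9-3, not past the threshold, was also -0.040 without TMM, -0.0082 without the filter, -0.040 with a count of at least 2 and -0.033 without rearrangements of both classes, and IGHV3-6 -0.0058 without TMM and -0.0019 without such rearrangements.

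Leaving out each mouse in turn, differences between groups ranged from -1.45 to 0.708 points for the IgD share of clonotypes, -0.571 to 0.0222 for the 10 most counted clonotypes, -0.0534 to 0.105 for the mutated share, -0.0168 to 0.0216 residues for CDR3 length, -0.201 to 0.284 points for IGHJ2, -0.463 to 0.0614 for IGHJ4 and -0.0585 to 0.00186 for the B-1 genes. The log2 change ranged from -0.012 to 0.036 for IGHV1-26, -0.016 to 0.072 for IGHV1-62-3,IGHV1-72 and -0.073 to 0.022 for IGHV9-3 between groups, and -0.020 to 0.034 for IGHV9-3 over IgM. The share with no mismatch over IgM ranged from 0.297 to 0.676 points, past the threshold without 2 of the mice, and the mismatch difference by IgM partner from -0.0141 to 0.00476. Among named genes over IgM, IGHV14-4 ceased to pass without 1 of the mice (edgeR adjusted p = 0.0650). IGHV7-1 came to pass without each of 3 mice, and IGHV1-62-3,IGHV1-72 without 1. The other measures of IgD against IgM, genes aside, kept their direction and side in each of these runs.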
